A study of Mus musculus with 2 samples.

Results

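The 3′ untranslated regions (3′ UTRs) of messenger RNAs, the stretches between the stop codon and the poly(A) tail, were examined as sources of small RNAs in the testis of young mice. A 3′ UTR was counted as a source when at least 100 reads of 24 to 30 nt, summed over both libraries of the series, began inside it and matched no other gene. With 1 transcript per protein-coding gene (the longest coding transcript of GENCODE M21, on the mouse build GRCm38), 4006 of 20941 annotated 3′ UTRs met this rule, or 19.1%. The number of 24 to 30 nt reads chose these UTRs, so that number and the ratios made from it are given as a description. Reads of 31 to 37 nt took no part in the choice, nor did base preferences and positions along the UTR.

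Both libraries came from testes taken 11 days after birth, each from 5 pooled pairs of testes, and there was 1 library per genotype, Tdrkh-/- and Tdrkh+/-. Exons 2 to 4 of Tdrkh, with the start codon in exon 2, had been floxed in D2 embryonic stem cells, a C57Bl6/129SEV hybrid line. A cross to FLP mice had removed the selection cassette, a cross to EIIa-Cre mice had excised the exons, and intercrosses had then removed the Cre transgene, on a C57Bl6/129 background. The Tdrkh+/- animals carried 1 excised allele, so they are heterozygous and not wild type. Independent knockout lines were made, and the labels do not say which of them gave this library. The 447 bases of exons 2 to 4 had 0 reads in Tdrkh-/- and 17 in Tdrkh+/-, while the other exons of Tdrkh had 269 and 457.

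PIWI-interacting RNAs (piRNAs) are small RNAs of germ cells that guide PIWI proteins to transposon and other RNAs. Primary piRNAs are cut from long single-stranded precursors, among them messenger RNAs, whose 3′ UTRs are a known source in the testis before meiosis. The 5′ end of a primary piRNA is usually a U, and the 3′ end of its precursor is trimmed on the surface of mitochondria, where the Tudor and KH domain protein TDRKH binds PIWI proteins. Where 1 cut makes both the 3′ end of a precursor and the 5′ end of the next one, the reads lie head to tail, which is called phasing.

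Total depth was 60973266 reads for Tdrkh-/- and 43172204 for Tdrkh+/-. MicroRNAs accounted for 2486303 and 2363475 of them. MicroRNAs are made without the piRNA pathway, and levels were therefore compared per microRNA read. Within the 4006 UTRs the Tdrkh-/- library had 2214756 reads of piRNA size (24 to 30 nt, called short reads; long reads are those of 31 to 37 nt) and the Tdrkh+/- library 6048688, that is 15.0% and 19.5% of all reads of this size. These were 97.0% and 97.5% of the 24 to 30 nt reads of all 3′ UTRs. Since each genotype has 1 library, differences have no replicate check and no test was run. Each interval is a 95% interval and covers counting error alone, because amplified reads that carry no molecular identifier may be copies of 1 molecule.

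The most-read sequence of each of 11 UTRs among those with the most reads shows what these RNAs look like. Each is printed 5′ to 3′ on the strand of the messenger RNA as the exact transcript sequence (T for U), from sequences of at most 29 nt; the capital at the start is the 5′ base of the read and the capital at the end is the transcript base that follows the read.
D10Wsu102e: TactgtatatctgcatgccaggggcccA
Klf13: TtcaagacgaatgaatgcctcggccccA
Zbtb37: TcgatctgtagattagcctggcctcccA
Abl2: TatcttgataagaaactgacagaagcctT
Gabpb2: TaagagaaagaactgtagctgggcagtG
Tmem245: TaataaatccgtgagagtcctgaccctT
Rab11fip4: TgacatcgtttagctgctctgctaagaA
Cbx5: TaggatttgatcctgaacagcctggcaG
Trim71: GagaaagccgttttatctgttaggagcG
Smcr8: TaacatactgtttctctaagtccttggcC
Aff4: TagatagagaacctgagatgctgagacccA

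Of these 11 sequences, 10 began with T and that of Trim71 with G. The Klf13 sequence lies at chr7:63888025-63888051 on the minus strand, 3457 nt after the stop codon, and was read 2736 times in Tdrkh-/- and 57334 times in Tdrkh+/-. The Zbtb37 sequence, at chr1:161011728-161011754 on the minus strand and 8167 nt after the stop codon, had 8375 and 51879 reads. The Abl2 sequence, at chr1:156647851-156647878 on the plus strand, had 6235 and 8290 reads, and only 30 and 13 long reads shared its 5′ end. The Zbtb37 end carried 12213 (Tdrkh-/-) and 486 (Tdrkh+/-) long reads. The printed ends thus differed widely in how many long reads they carried in the Tdrkh-/- library.

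At the Cbx5 end the most frequent length of reads of 24 to 37 nt was 33 nt for Tdrkh-/- and 27 nt for Tdrkh+/-. It was 30 nt and 28 nt at the Smcr8 end and at the Aff4 end 30 nt, before a U, and 29 nt, before an A. At the other 8 ends the most frequent length was the same in both libraries. In the Klf13 end, for example, 27 nt made up 40.9% of Tdrkh-/- reads and 89.3% of Tdrkh+/- reads. At 10 of the 11 ends the mean length was greater in Tdrkh-/-; the exception was Abl2, with 28.01 nt in both libraries.

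Reads were spread very unevenly over the UTRs. The median UTR had 340.5 reads of 24 to 30 nt in both libraries together, with quartiles of 171 and 1111, while 1070 UTRs had at least 1000 reads. A set of 132 UTRs held 50% of the reads. In each library the 10 largest held 16.6% (Tdrkh-/-) and 16.2% (Tdrkh+/-) of its UTR reads, and the 100 largest 47.2% and 45.3%. The members just inside the rule were Tmem106b (27 and 73 reads), Vmn1r197 (73 and 27) and Vmn2r67 (60 and 40), and the UTRs just outside it, with 99 reads each, were 2810459M11Rik (46 and 53), Adcy6 (5 and 94) and Derl2 (52 and 47). Counted in 1 library alone, 3309 members reached 100 reads in Tdrkh+/-, 1879 in Tdrkh-/- and 1807 in both, so the rule drew many more UTRs through the Tdrkh+/- library.

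Reads within a UTR came from many 5′ ends. The median member used 14 different 5′ ends in Tdrkh-/- and 53 in Tdrkh+/-, and the most used end held a median of 25.4% and 19.0% of its reads. In 335 members (8.36%) a single end held at least 50% of the reads of both libraries. Among UTRs with at least 500 reads the most used end took 86.2% of the reads in Stx17, a membrane fusion protein, 92.4% in Dnajc15 and 100% in Fbxo43, and as little as 3.24% in Scube3 and 3.36% in Pgm2l1, which encodes a sugar phosphate enzyme.

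D10Wsu102e had the most short reads, 84060 (Tdrkh-/-) and 186012 (Tdrkh+/-). Its annotated 3′ UTR at chr10:83365923-83488505 is 122583 nt long, and whether a single transcript runs through it was not tested. Klf13 encodes a zinc finger transcription factor of the Krüppel-like family, and its 5157-nt UTR held 15187 and 162726 reads at chr7:63886351-63891507. Its 34499 reads per kb over both libraries were the highest density among members of at least 300 nt. Bpnt1, a phosphatase of sulfate metabolism, followed with 31679 reads per kb, of which 85.01% began at 1 position, and then Abl2, a tyrosine kinase (18462), Gabpb2, a subunit of a GA-binding transcription factor (17399), and Rab11fip4, a partner of the Rab11 transport proteins (17011). Density therefore reached its top values in UTRs that differ in length, from 1151 nt in Bpnt1 to 6904 nt in Gabpb2. Zbtb20, a zinc finger factor with a UTR of 23858 nt, had 520 reads per kb, and Aak1, a kinase of endocytosis with 15925 nt, had 1004.

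Long 3′ UTRs met the rule more often. The share of UTRs with at least 100 reads was 1.74% at up to 250 nt, 9.19% at 500 to 1000 nt, 42.3% at 2000 to 4000 nt and 69.3% above 8000 nt. The median length of members was 2512.5 nt, against 718 nt for the other UTRs. A minimum on the read number favours long UTRs at any density, so this share alone does not measure density.

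Density over all UTRs of a length class, members or not, was nearly flat below 2000 nt and higher above it. In Tdrkh+/- there were 47.0, 41.8, 37.9 and 52.5 reads per kb in the 4 classes up to 2000 nt. Above that there were 187 at 2000 to 4000 nt, 406 at 4000 to 8000 nt and 511 in longer UTRs. The Tdrkh-/- values ran in the same way from 19.5 in the shortest class to 206 in the longest, as raw reads not scaled between libraries. UTRs of 4000 to 8000 nt held 43.7% of the reads on 22.1% of the bases, and longer ones 14.7% on 5.66%. Pooled in the same way, coding regions of the same genes varied less in Tdrkh+/-. They had 46.5 reads per kb at a UTR of 500 to 1000 nt, 96.6 at 4000 to 8000 nt and 70.0 above 8000 nt. The median coding density per gene rose with UTR length, from 1.84 reads per kb in the shortest class to 16.2 at 1000 to 2000 nt and 38.2 above 8000 nt. In medians a rise with UTR length was thus seen in coding regions as well.

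The rank correlation of density with length depended on which UTRs entered. Spearman's rho across UTRs was 0.366 over all 20941, 0.048 over the 12861 with at least 1 read and -0.117 over the members, as a description, since UTRs share both libraries and low counts are coarse. Among members the shortest class had the highest median density, 1331 reads per kb, as 100 reads in at most 250 nt require, and from 1000 nt upward the class medians lay between 153 and 205. Over all UTRs of a class, members or not, the median density of both libraries together was 10.6 reads per kb at 1000 to 2000 nt, 22.3 at 2000 to 4000 nt, 45.8 at 4000 to 8000 nt and 33.9 above. The high pooled densities of long UTRs thus rest mostly on a minority of UTRs with very many reads.

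**Figure D1:**
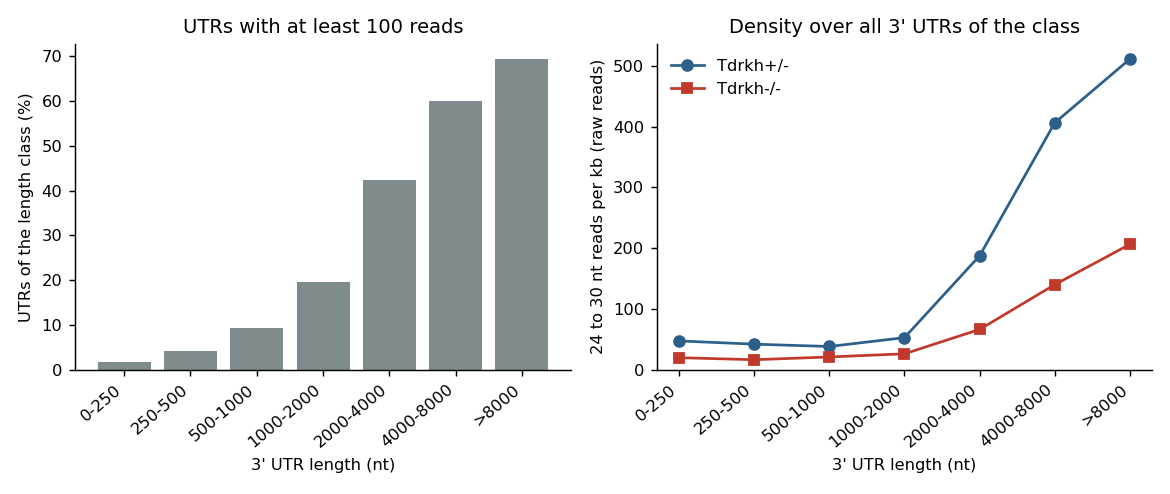
The left panel gives the share of 3′ UTRs of each length class (nt) that had at least 100 reads of 24 to 30 nt, and the right panel the reads per kb over all 3′ UTRs of the class in Tdrkh+/- (circles) and Tdrkh-/- (squares), as raw reads. The share goes from 1.74% to 69.3%, and density stays between 37.9 and 52.5 reads per kb in Tdrkh+/- up to 2000 nt and reaches 511 above 8000 nt.

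Within messenger RNAs most reads lay in the 3′ UTR. Over all protein-coding genes, 3′ UTRs made up 43.2% of the bases and held 72.9% of the 24 to 30 nt messenger RNA reads in Tdrkh-/- (Wilson interval 72.8% to 72.9%) and 72.1% in Tdrkh+/- (72.1% to 72.1%). At 31 to 37 nt the shares were 74.2% and 65.8%. There were 74.4 and 202 reads of 24 to 30 nt per kb of 3′ UTR, against 22.7 and 61.8 per kb of coding region.

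Gene by gene the preference was smaller. Among members with a coding region of at least 300 nt, 3′ UTR density was a median of 2.08 times the coding density in both libraries, with quartiles of 0.890 and 4.98 in Tdrkh+/-. It was at least 10 times as high in 542 genes in Tdrkh-/- and 473 in Tdrkh+/-, of which 428 and 350 had a coding region where 50% or more of the 27-mers matched 1 gene alone. These genes were chosen for their 3′ UTR reads, which raises that ratio. When genes were instead chosen by reads over the whole messenger RNA (6782 genes), the median was 1.03 in Tdrkh-/- and 0.999 in Tdrkh+/-. The pooled excess in 3′ UTRs thus came from a part of the genes rather than from the median gene.

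The extremes of this ratio were far apart. Zbtb37 had 146 times as many reads per kb in its 3′ UTR as in its coding region, Klf13 73.0 times and Aff4, a subunit of the super elongation complex, 63.3 times. At the other end Gmfb had 0.04 times, and Zdhhc3, a palmitoyltransferase, 0.07 times the coding density. In these 5 genes every 27-mer of the coding region matched 1 gene alone. No ratio is given for Hic2, a transcriptional repressor, and Rab11b, a transport GTPase, since only 1.34% and 7.63% of their coding 27-mers did.

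In long UTRs the reads lay mainly in the middle. In the 884 members longer than 4000 nt the 5 equal parts from stop codon to UTR end held a mean of 14.5%, 21.3%, 24.7%, 24.2% and 15.3% of the 24 to 30 nt reads in Tdrkh+/-. In Tdrkh-/- they held 15.3%, 19.6%, 23.2%, 23.7% and 18.2%. Uniquely matching 27-mers were spread evenly over these UTRs, with 19.6% to 20.3% in each part. In UTRs of 500 to 1000 nt the order was different, with 24.3% of Tdrkh+/- reads in the part next to the stop codon and 15.2% in the last. The last part of these short UTRs also held fewer unique 27-mers, 16.7% against 21.5% in the first, since a read must fit before the end.

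By distance, density was below the mean of the UTR near both borders. In members of at least 2000 nt the 200 nt after the stop codon had 0.854 times the mean density of their UTR in Tdrkh+/-. Values there stayed below 1 up to 1000 nt, then reached 1.15 at 1801 to 2000 nt. In Tdrkh-/- the first 200 nt lay close to the mean, at 0.974 for short and 0.952 for long reads. Its short reads were lower at 401 to 600 nt, with 0.777. The last 200 nt had 0.492 times the mean in Tdrkh+/- and 0.671 times in Tdrkh-/-. Medians over UTRs were lower than these means, 0.268 in the first 200 nt and 0.117 in the last in Tdrkh+/-. The low density near the UTR end was thus present in both genotypes and less deep in Tdrkh-/-, a difference that has no replicate check. A read must fit before the end, so the matching itself lowers the last 200 nt in part, and this part was not separated. The use of transcript ends before the annotated one was not tested.

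**Figure D2:**
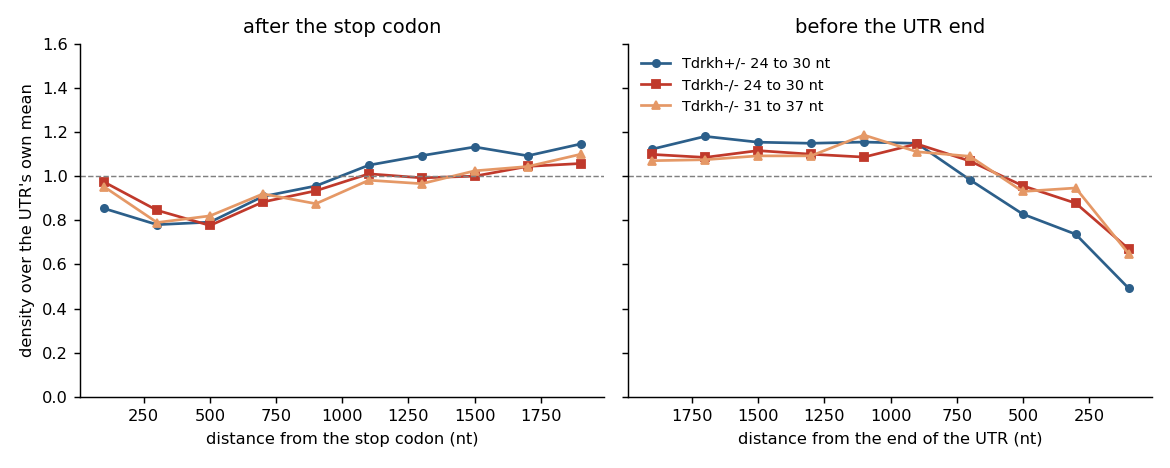
The mean density of reads in bins of 200 nt, relative to the mean density of the same 3′ UTR (dashed line at 1), is plotted against the distance in nt from the stop codon (left) and from the end of the UTR (right), in members of at least 2000 nt. Circles are Tdrkh+/- 24 to 30 nt, squares Tdrkh-/- 24 to 30 nt and triangles Tdrkh-/- 31 to 37 nt; all 3 lie below 1 near the stop codon and drop to between 0.492 and 0.671 in the last 200 nt.

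Around the stop codon density was higher on the coding side. Genes with at least 1000 nt of coding region and of 3′ UTR, chosen by reads over the whole messenger RNA, were aligned there in bins of 100 nt over 1000 nt on each side. In Tdrkh+/- (3550 genes) the coding side held 51.3% and the UTR side 48.7% of the 24 to 30 nt reads. The highest bin was the last 100 nt of coding sequence, with 6.73%. The last 300 nt of coding sequence averaged 5.84% per bin and the first 300 nt of the UTR 4.28%. Tdrkh-/- gave 5.92% and 4.43%, and long reads gave the same order in both libraries.

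In the Tdrkh-/- library the UTR reads were longer. Reads of 24 to 37 nt peaked at 27 nt in Tdrkh+/-, with 22.8% of reads, and at 32 nt in Tdrkh-/-, with 12.6%. Per microRNA read there were 0.891 (Tdrkh-/-) and 2.56 (Tdrkh+/-) reads of piRNA size, with a ratio of 0.348. Long reads, of 31 to 37 nt, came to 2.26 and 0.468, with a ratio of 4.83. By single lengths the ratio was lowest at 27 nt, 0.153, near 1 at 24 nt and 30 nt (1.10 and 1.03), and 9.79 at 36 nt.

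The difference in length was seen in nearly all members. Reads of 24 to 30 nt, which chose the members mostly through the Tdrkh+/- library, enter the mean length, so it is a description. The mean length of reads of 24 to 37 nt had a median over UTRs of 31.96 nt (Tdrkh-/-) and 28.5 nt (Tdrkh+/-). It was greater in Tdrkh-/- in 3962 members (98.9%), by a median of 3.36 nt with quartiles of 2.58 and 3.99 nt. Trim71, a regulator of stem cell growth, had 33.5 and 28.3 nt, and Klf13 30.7 and 27.1 nt. Lin28a, an RNA-binding protein of undifferentiated spermatogonia, had 26.9 and 26.2 nt, with 68.9% of its short reads at 1 position.

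The same held at single 5′ ends. Of 21355 single ends that both libraries covered with 20 or more reads, 90.3% had longer reads in Tdrkh-/-, and the median difference over all of them was 2.22 nt. Of the Tdrkh-/- reads of 31 to 37 nt, 79.8% began exactly where a 24 to 30 nt read of Tdrkh+/- began. For starts moved by 1 to 10 nt to either side, the median share was 40.2% and the highest 55.7%. Over single UTRs the median share was 50.9%, against 22.0% at the highest shift. Long reads of the knockout and short reads of the heterozygote thus started at the same positions more often than at neighbouring ones. Since the 5′ ends of both are mostly U, shifted starts often fall on other bases, which lowers their share by itself. Starts at U bases alone were not compared.

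**Figure D3:**
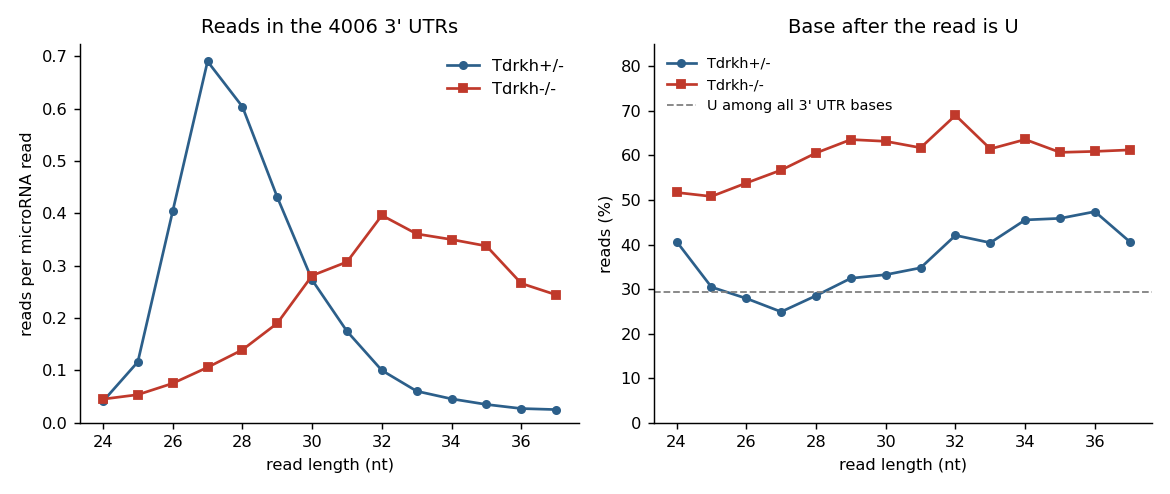
On the left, reads in the 4006 3′ UTRs per microRNA read are plotted by read length (nt) for Tdrkh+/- (circles) and Tdrkh-/- (squares); on the right, the share of reads whose following transcript base is U, with the share of U among all bases of these UTRs (29.4%) as a dashed line. Tdrkh+/- reads peak at 27 nt and Tdrkh-/- reads at 32 nt, and the following base is U in 50.8% to 69.0% of Tdrkh-/- reads and in 24.9% to 47.4% of Tdrkh+/- reads.

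Short and long reads differed in opposite directions between the libraries in most UTRs. At 24 to 30 nt, 2942 of 4006 members (73.4%) were at least 2-fold lower per microRNA read in Tdrkh-/-, beside 72.1% of the 10305 3′ UTRs, coding regions, 5′ UTRs and long noncoding RNAs with at least 100 such reads, which include the members. At least 2-fold higher were 76 members, or 1.90%, beside 1.53%. The read number at 24 to 30 nt chose the members, so nothing is read from these counts. Their median log2 ratio was -1.61 with quartiles of -2.25 and -0.95. Scaled per read listed, or per transcript-matching read of 24 to 40 nt, all log2 ratios were lower, by 0.42 or 0.61, and this median was -2.03 or -2.21.

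At 31 to 37 nt, which the choice did not use, 3200 members (79.9%) were at least 2-fold higher in Tdrkh-/-, beside 72.1% of all features, and 38 (0.949%) at least 2-fold lower, beside 1.86%. The median log2 ratio was 1.83 in 3′ UTRs, 1.39 in 5398 coding regions, 1.33 in 401 5′ UTRs and 2.24 in 500 long noncoding RNAs. With each distinct sequence counted once in place of each read, 836 members (20.9%) were at least 2-fold higher and the median was 0.47. The surplus of long reads was therefore much larger in reads than in the number of different sequences. Short reads were lower and long reads higher in 3539 members (88.3%). The same pair of signs was shown by 88.8% of coding regions, 75.6% of 5′ UTRs and 70.2% of long noncoding RNAs. Short reads enter this count and chose the members, so nothing is read from it.

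**Figure D4:**
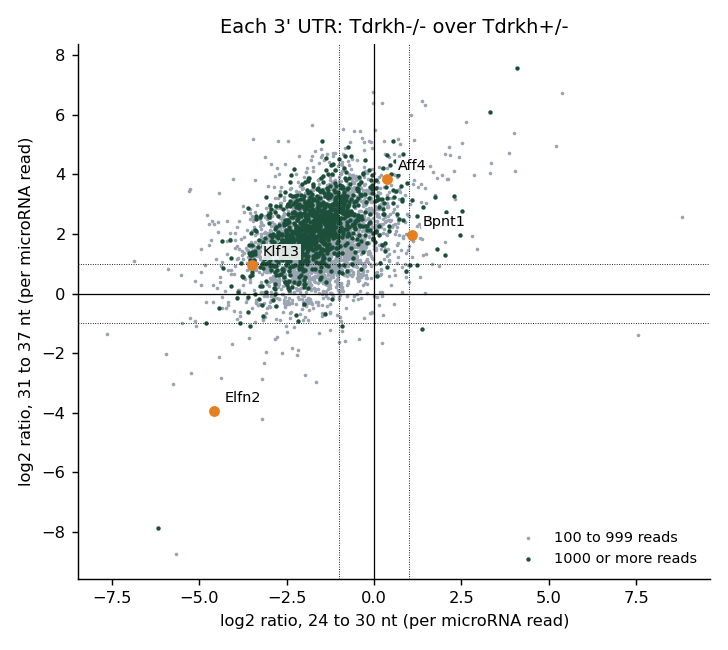
Each point is a 3′ UTR, with the log2 ratio of Tdrkh-/- over Tdrkh+/- per microRNA read at 24 to 30 nt on the horizontal axis and at 31 to 37 nt on the vertical axis; a count of 0 was set to 3, and dotted lines mark 2-fold. Most points lie at the upper left, 3539 of the 4006 UTRs, and the named Elfn2 lies at the lower left and Bpnt1 at the upper right.

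Among these 11 UTRs, Klf13 had the lowest ratio at 24 to 30 nt, 11.3-fold lower in Tdrkh-/- with a log2 ratio of -3.49 (-3.52 to -3.47). Its long reads numbered 19153 and 9334, for a log2 ratio of 0.96. Rab11fip4 had 11857 and 76328 short reads (log2 ratio -2.76) and 39570 and 6177 long reads (2.61). Tmem245, a membrane protein, had 20034 and 87817 short reads (-2.21) and 85418 and 13093 long reads (2.63). These 3 UTRs had the lowest ratios of short reads among the 11, and the excess of long reads went from 1.95-fold in Klf13 to 6.20-fold in Tmem245.

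Trim71 had 14954 and 44139 short reads (-1.63) against 105182 and 8837 long reads (3.50). Cbx5, a heterochromatin protein, had 20120 and 41642 short reads (-1.12) and Smcr8, a partner of the C9orf72 protein in autophagy, 17538 and 39930 (-1.26), with long ratios of 3.13 and 3.25. Aff4 was the only one of the 11 with more short reads per microRNA read in Tdrkh-/-, 28837 against 21352 (0.36), and 65.3% of them in both libraries together began at 1 position. Scaled per read listed this ratio was -0.06, and per transcript-matching read -0.25. Its long reads numbered 20933 and 1388 (3.84).

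Some UTRs were lower at both lengths. In 31 members (0.774%) both classes were at least 2-fold lower, beside 1.76% of all 10301 features with a ratio at both lengths. Nothing is read from either count, because short reads chose the members. Elfn2 had 150 and 3423 short reads (log2 ratio -4.59) and 25 and 364 long reads (-3.94), and 1700006A11Rik had 27 and 1858 short reads (-6.18) and 1 and 223 long reads (-7.87, a ratio that rests on 1 read). Hmmr, a hyaluronan receptor of dividing cells, had 113 and 3043 short reads (-4.82) and 489 and 927 long reads (-0.996). Tdrkh itself was a member, with 22 and 129 short reads (-2.62, interval -3.35 to -1.97) and 58 and 222 long reads (-2.01). Its 3′ UTR lies outside the excised exons, and 42.4% of its 27-mers matched no other gene.

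UTRs at least 2-fold higher at both lengths numbered 67 (1.67%), beside 1.33% of all features, and nothing is read from either count because short reads chose the members. Bpnt1 had 25127 and 11335 short reads (1.08) and 17921 and 4353 long reads (1.97), Hsd17b7, an enzyme of sterol synthesis, 4574 and 1043 (2.06) and 1455 and 208 (2.73), and Polr3gl, a subunit of RNA polymerase III, 4679 and 813 (2.45) and 1204 and 294 (1.96). In these 3 UTRs a single 5′ end held 85.01%, 72.3% and 86.2% of the short reads. A 5′ U was carried by 88.8% and 84.9% of the short reads of Bpnt1, by 8.85% and 84.3% of those of Hsd17b7 and by 2.52% and 24.7% of those of Polr3gl. The short Tdrkh-/- reads of the last 2 thus mostly lacked the 5′ U of primary piRNAs. Fbxo43, an inhibitor of the anaphase-promoting complex, had 589 short reads in Tdrkh-/-, all from 1 position, and 0 in Tdrkh+/-. With the 0 set to the floor of 3 counts this was 187-fold higher, a log2 ratio of 7.54, and the interval began at 7.24. Long reads of Fbxo43 numbered 4 and 10. Over the 335 members with at least 50% of reads at 1 end the median log2 ratio was -1.29 with quartiles of -2.74 and 0.16, against a median of -1.62 over the others. Beside the quartiles of -2.25 and -0.95 over all members, ratios were more widely spread where 1 position carried the reads.

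Ratios of the 3′ UTR and the coding region of 1 gene were weakly related. In 2548 genes whose 3′ UTR and coding region each had 100 or more short reads, the median log2 ratio was -1.66 in the 3′ UTR and -1.57 in the coding region. Both lay on the same side of 0 in 91.5% of genes, and Spearman's rho across genes was 0.228, as a description. The difference of the ratios had quartiles of -0.83 and 0.74. Nor did ratios follow length or abundance closely, with rho of -0.052 with UTR length and -0.090 with total reads across members.

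The 5′ ends carried the U of primary piRNAs in both genotypes. The share of 24 to 30 nt reads with a 5′ U had a median over UTRs of 82.2% in Tdrkh-/- and 83.8% in Tdrkh+/-, while U made up a median of 29.01% of UTR bases. It was above the U content of the same UTR in 96.9% and 98.8% of members. At 31 to 37 nt the medians were 83.3% and 78.1%. A at position 10, the mark of piRNAs made by the cut of another piRNA, had a median share of 27.5% in both libraries at 24 to 30 nt, near the 26.1% of A among all UTR bases. Pooled over all short reads it was 34.9% (Tdrkh-/-) and 32.2% (Tdrkh+/-), and over those without a 5′ U 34.9% and 33.1%, all above that base content. In Klf13 the 5′ U share was 92.9% and 95.2%, in Aff4 98.4% and 94.8%, and in Zbtb16, a transcription factor of spermatogonial stem cells, 54.8% and 69.5%.

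The 3′ ends differed between the genotypes in the base that follows. At 24 to 30 nt the following transcript base was U in a median of 57.9% of reads in Tdrkh-/- and 29.2% in Tdrkh+/-, the latter close to the U content of the UTRs. The share was higher in Tdrkh-/- in 3578 of 3999 members (89.5%). At 31 to 37 nt the medians were 60.5% and 38.4%. In Cbx5 the share at 24 to 30 nt was 73.8% and 36.02%, in Gabpb2 56.6% and 17.2%, in Aff4 80.7% and 20.9%, and in Klf13 21.9% and 3.33%. Rab11b had the opposite order, with 23.98% and 62.4%. In most UTRs reads of the knockout thus ended before a U far more often, at piRNA size as well as at greater lengths.

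This was also seen with the 5′ end held fixed. Over the single ends covered 20 or more times in both libraries, weighted equally, a Tdrkh-/- read was 28 nt long in a mean of 17.3% of reads where the base after 28 nt was U and in 4.10% where it was another base, a ratio of 4.21. At 31 nt the values were 21.9% and 5.95% (3.68). In Tdrkh+/- the ratio was lowest at 27 nt, with 23.4% and 16.5% (1.42), and was higher on both sides, with 2.73 at 24 nt and 2.70 at 34 nt. The most frequent lengths of the heterozygote were therefore those least tied to the following base.

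Reads of both libraries were on average shortest where the first U at least 27 nt downstream came directly after 27 nt, with means of 30.9 nt (Tdrkh-/-) and 28.4 nt (Tdrkh+/-). Where it came after 35 nt the means were 32.9 nt and 29.1 nt. The rise was not steady. Tdrkh+/- means stayed between 29.1 and 29.3 nt from 30 nt on, and the Tdrkh-/- mean was 32.7 nt at 37 nt. At the 729 ends with no U up to 37 nt the means were 31.7 nt and 28.6 nt. The share of reads ending exactly before the first U had an order that depended on its distance. It was 13.2% (Tdrkh-/-) and 23.4% (Tdrkh+/-) at the 5241 ends whose first U came after 27 nt, 14.4% and 19.3% at 28 nt, and 25.9% and 9.75% at the 1202 ends with 32 nt.

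Head-to-tail spacing was more marked in Tdrkh-/-. For each read the distances from its 3′ end to the 5′ ends within the next 50 nt of the same UTR were collected, and the share at 1 nt, where the next read begins on the following base, was averaged over UTRs. It was 6.05% for 24 to 30 nt reads of Tdrkh-/- (3249 UTRs), 3.15 times the mean over 2 to 50 nt. In Tdrkh+/- (3940 UTRs) it was 3.03%, 1.53 times that mean, and when reads were pooled over all UTRs the ratio was 2.38 in Tdrkh-/- and 0.976 in Tdrkh+/-. The excess in Tdrkh+/- therefore depends on giving each UTR the same weight. In the pooled short reads of Tdrkh-/- other distances came close to the 4.63% at 1 nt, with 4.38% at 38 nt and 4.30% at 39 nt. From long Tdrkh-/- reads to Tdrkh-/- reads of 24 to 37 nt, the pooled shares at 6 nt (9.51%) and 8 nt (10.6%) exceeded the 5.49% at 1 nt. The peak at 1 nt in Tdrkh-/- thus also stood out less when reads were pooled.

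Between the libraries the excess was as large as within the knockout. From the 3′ ends of Tdrkh-/- reads of 31 to 37 nt to the 5′ ends of Tdrkh+/- reads of 24 to 30 nt, the share at 1 nt was 6.38%, 3.34 times the mean of the other distances. From the long reads of Tdrkh+/- to its own short reads it was 4.15%, a ratio of 2.12. Since 5′ ends are mostly U, a 3′ end before a U raises this share by itself. Among 3′ ends followed by a U, the following U took 12.3% of the pairs with a 5′ U within 50 nt in Tdrkh-/-, where it was 7.06% of the available U bases. In Tdrkh+/- these values were 9.23% and 7.03%, so an excess remained in both libraries and was larger in Tdrkh-/-.

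**Figure D5:**
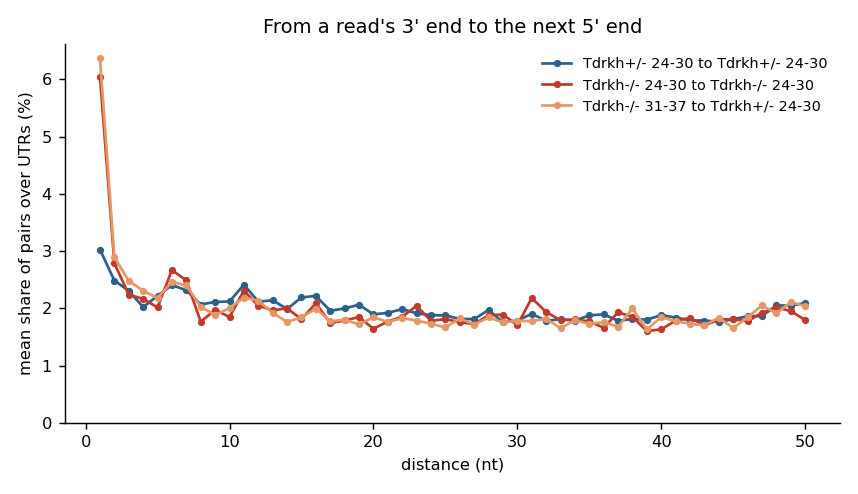
The horizontal axis is the distance in nt from the 3′ end of a read to a 5′ end downstream in the same 3′ UTR, and the vertical axis the share of pairs at that distance among 1 to 50 nt, averaged over UTRs. At 1 nt the share is 6.05% within Tdrkh-/-, 6.38% from long Tdrkh-/- reads to Tdrkh+/- reads and 3.03% within Tdrkh+/-, while at 2 to 50 nt it stays between 1.603% and 2.89% in all 3 curves.

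Junctions between adjacent reads, paired over both libraries summed, are printed for the 5 UTRs with the highest share of pairs at 1 nt among those with at least 1000 reads. Each line has the 14 bases before and after the junction with most pairs, and the capital is the 5′ base of the downstream read.
Frmd6: acgttgctcgccctTcaggagagaactt
Gprc5c: agagtccttggcctTaggacatgcaccg
Bbs4: aacccagggtgtgtTgtgatgatcagaa
Tbc1d16: gtgccacccacgccTaccctgaagaaaa
Dusp16: ctggcagctgaggaTaggagataagaac

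All 5 downstream reads begin with T, and in each UTR this 1 junction made up 95.5% to 99.3% of the pairs at 1 nt, so these shares describe single positions. At the Tbc1d16 junction, chr11:119143512-119143539 on the minus strand, 254 reads of 24 to 30 nt ended and 649 began in Tdrkh-/-, against 71 and 368 in Tdrkh+/-, and 115 long Tdrkh-/- reads ended at the same base. At the Frmd6 junction, chr12:70901015-70901042 on the plus strand, 261 reads ended and 8 began in Tdrkh-/-, against 260 and 31 in Tdrkh+/-. At the Bbs4 junction 1119 reads ended and 0 began in Tdrkh-/-, against 49 and 9 in Tdrkh+/-, so most of its pairs join reads of different libraries. The share over all pairs within 50 nt was 50.3% in Tbc1d16, 61.5% in Frmd6, 53.6% in Gprc5c, 53.2% in Bbs4 and 50.2% in Dusp16. In Bud23, Cnga3, 4930453N24Rik, Chd5 and Flot2 it was 0, with at least 1000 reads each.

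The spacing of 5′ ends was examined in the same UTRs. Among pairs of 5′ ends 1 to 60 nt apart, 47.2% in Tdrkh+/- and 50.1% in Tdrkh-/- lay within 5 nt of each other at 24 to 30 nt. Beyond 20 nt the highest share was at 29 nt in Tdrkh+/- (0.928%, against a mean of 0.757% at 45 to 60 nt) and at 30 nt in Tdrkh-/- (1.26% against 0.717%). For reads of 31 to 37 nt it was at 37 nt in Tdrkh+/- (1.01%) and at 34 nt in Tdrkh-/- (1.02%). In Tdrkh+/- other distances came close, with 0.903% at 38 nt for short reads and 0.988% at 24 nt for long ones, and none of the curves was examined for repeats.

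Gene lists show which kinds of messenger RNA had source UTRs. Of 27 genes for proteins that bind or act on 3′ UTRs, 21 were members (77.8%). All UTRs had 19.1% members, and those of 2000 to 4000 nt 42.3%. The list had long UTRs, with a median of 2750 nt against 939 nt, and membership at equal length was not compared. Of these 21, 18 were at least 2-fold lower at 24 to 30 nt, beside 73.4% of all members, whose short reads chose them. At 31 to 37 nt 16 were at least 2-fold higher, beside 79.9% of all members. The medians of the 21 were -1.84 and 1.47, beside -1.61 and 1.83 over all members. Ago3, an Argonaute protein of microRNA silencing, had 4438 and 15394 short reads (-1.87) and 11236 and 1518 long reads (2.81). Ago2, the Argonaute that can cut its target, had 892 and 10308 short reads (-3.60) and 1795 and 2631 long reads (-0.62). Ago1 had 1086 and 8361 short reads (-3.02), and Tnrc6b, the scaffold that joins Argonautes to deadenylases, 1613 and 7364 (-2.26).

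Of 17 Krüppel-like factors 9 were members, with medians of -1.46 and 2.01, and at 24 to 30 nt the ratio of 6 was 2-fold lower or more and that of 1 2-fold higher or more, beside 73.4% and 1.90% of all members. Their median UTR was 1797 nt. Klf7 had 854 and 4595 short reads (-2.50), and Klf9 had 913 and 432 (1.01), of which 79.0% began at 1 position. Spermatogonial genes had 10 members of 20, of which 7 were lower and 0 higher by 2-fold. Their median UTR was 1774.5 nt, against 939 nt over all UTRs. Members made up 52.9% of the Krüppel-like list and 50% of the spermatogonial list. All UTRs had 19.1% members, and those of 1000 to 2000 nt 19.6%. Both lists are short, so no difference is read from these shares. Zbtb16 had 199 and 2235 short reads (-3.56), and Kit, the receptor of differentiating spermatogonia, 305 and 839 (-1.53). Lin28a had 7622 and 5558 (0.38), a ratio of -0.04 per read listed and -0.22 per transcript-matching read.

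Early meiosis genes had 4 members of 20 and a median UTR of 337.5 nt, with Hormad1 at -1.97 and Stag3, a meiotic cohesin subunit, at -1.22. piRNA pathway genes had 4 members of 25 and a median UTR of 357 nt, with Exd1 at -1.56, Tdrd1 at -1.51 and Piwil2 at -0.37. Cytosolic ribosomal proteins had 11 members of 81 and a median UTR of 99 nt. Their highest was Rps3, with 1367 and 489 short reads (1.41), of which 77.2% began at 1 position and 10.8% and 35.4% carried a 5′ U, and Rpl19 had 25 and 433 (-4.19). Histones had 7 members of 66 and a median UTR of 283 nt. In this order the lists had 20%, 16%, 13.6% and 10.6% members, beside 19.1% of all UTRs. Of all UTRs of 250 to 500 nt 4.21% were members, and of those up to 250 nt 1.74%.

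Among genes of the somatic cells of the testis, 7.14% of the Sertoli list, 14.3% of the Leydig list and none of the others were members. These shares stand beside 19.1% of all UTRs and 9.19% of those of 500 to 1000 nt. The lists, of 5 to 14 genes, are short, so no difference is read from the shares. Their median UTR was 756.5 nt for Sertoli cells, 706 nt for Leydig cells, 752 nt for peritubular cells and 1214 nt for endothelium and macrophages. Sertoli cells had 1 member of 14 genes, Clu, with 141 and 175 short reads (-0.38), Leydig cells 1 of 7, Star, the cholesterol carrier of steroid synthesis, with 205 and 465 (-1.25), and peritubular cells 0 of 5 and endothelium and macrophages 0 of 6. Summed over each list, short reads in Tdrkh-/- and Tdrkh+/- numbered 222 and 324 for Sertoli cells, 217 and 482 for Leydig cells, 19 and 5 for peritubular cells and 11 and 14 for endothelium and macrophages. Of the somatic UTRs 5, 4, 2 and 3, in the same order, had 0 short reads. Of the short reads of Clu 2.13% and 18.9% carried a 5′ U. In whole testes fewer cells of a type and less RNA per cell cannot be told apart, and their part in the results was not tested.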

How the data were processed

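The authors deposited 1 table per library that lists each distinct sequence of 18 to 40 nt with its raw read count, as the values themselves show. RNAs of 15 to 40 nt were cut from a gel and sequenced with an Illumina Genome Analyzer II, according to the labels. The submitters' processing notes name Bowtie and mm9; no source used here gives versions, trimming or filters.

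All sequences of 24 to 40 nt were matched exactly and over their whole length to both strands of the GENCODE M21 transcripts (GRCm38) in Python 3.11.15 with Numba 0.67.0, pandas 2.3.3, NumPy 2.4.6 and SciPy 1.17.1; Matplotlib 3.10.9 drew the figures. Sequences in 1 gene alone, on either strand, were kept (at piRNA size 24.9% of Tdrkh-/- and 34.2% of Tdrkh+/- reads), so repeats are under-represented. A read at several places of its transcript was put at the first (0.141% and 0.130% of reads). Coordinates come from this match and not from the authors' build. Reads of 18 to 25 nt in annotated microRNA hairpins were the scale.

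Ratios carry exact conditional binomial intervals and shares Wilson intervals, both at 95%. Where a library had 0 reads, the ratio was taken against 3 counts as a floor. Mappability was taken from 27-mers at every 5th base. Named UTRs are the 12 with most reads, the 3 on each side of the minimum, Tdrkh, up to 4 of each gene list and the 5 extremes of ratio, density, length, 3′ UTR to coding density, use of 1 end and head-to-tail share, each above a read minimum. UTRs of the lists of members lower or higher at both lengths, and the odorant and pheromone receptors, were chosen after their values were seen. The members and gene lists were chosen with earlier results of these data known.

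For 120 sequences the strands found were checked with an independent text search, and 0 differed. Ratios and head-to-tail shares were tested on simulated data. The alternatives tried were distinct sequences counted once, sequences read once left out, antisense matches ignored, another transcript per gene, narrower windows, other minimums, other scalings and pooled reads. One of the 12 UTRs with most reads is not reported here. Introns and intergenic regions were not analysed here.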

Additional observations from a re-analysis of the deposited data

Results flagged for a closer look

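Reads of 38 to 40 nt were outside the windows compared above and were present in the same 3′ UTRs. They numbered 1214811 in Tdrkh-/- and 149249 in Tdrkh+/-. The tables end at 40 nt, so longer RNAs were not analysed here.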

How the results depend on the processing

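Of 55 recomputed values 30 stayed the same by the rule of their result and 25 moved. The number of members and the 2-fold shares had to stay within 1.5 times the main value. Medians over UTRs had to stay within a 95% interval of the median across UTRs, which is not a counting interval. The other results had to be equal to 3 digits. A change of sign was looked for in the length difference alone, which had none, and the head-to-tail ratio of Tdrkh+/- crossed 1 when pooled. The number of source UTRs was 1764 with distinct sequences and 1576 with a minimum of 500 reads. UTRs at least 2-fold higher at 31 to 37 nt made up 20.9% with distinct sequences and 58.7% to 88.4% otherwise, and those at least 2-fold lower at 24 to 30 nt 68.3% to 95.5%. The median 3′ UTR to coding density in Tdrkh+/- was 1.51 with distinct sequences, 2.21 without sequences read once, 3.56 at a minimum of 500 reads, 3.001 pooled and, added after seeing the data, 1.95 per uniquely matching 27-mer. The mean share in the part next to the stop codon (18.4%) was 19.2% with distinct sequences, 18.2% without sequences read once, 18.03% with antisense matches ignored, 13.5% at a minimum of 500 reads and 10.5% pooled. The head-to-tail ratio in Tdrkh+/- was 1.34, 1.57, 1.56, 1.41 and 0.976 under the same settings, and 1.52 on the transcript with the longest coding region. The median difference in length was 2.88 nt with distinct sequences and 3.41 nt without sequences read once. The median 5′ U share in Tdrkh+/- was 72.4% and 85.4% under these settings, 86.7% at a minimum of 500 reads and 86.6% pooled. The cause of these shifts was not tested. Without the 10 most abundant UTRs, added after seeing the data, the head-to-tail ratio and the share near the stop codon were as before to 3 digits. No paired analysis was possible because each genotype has 1 library. Depth limits ratios most in UTRs near 100 reads.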

Other observations

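Odorant and pheromone receptor genes (symbols Olfr and Vmn), are described here, chosen after their values were seen. Of 1314 such genes with a 3′ UTR 45 were members, and they made up 20 of the 76 members at least 2-fold higher at 24 to 30 nt, while 7 were at least 2-fold lower; short reads chose the members, so nothing is read from these counts. Their short reads summed to 14225 (Tdrkh-/-) and 7196 (Tdrkh+/-), and their long reads to 46134 and 5987. Single UTRs carried much of the sums of long reads. Olfr539 had 17864 and 210 long reads, while Olfr877 went the other way with 8 and 3308. The median log2 ratios of the 45 members were 0.64 and 3.64. Vmn1r47 had 1831 and 103 short reads (log2 ratio 4.08) and Olfr362 660 and 38 (4.05), of which 59.1% and 93.3% began at 1 position. The median 5′ U share of these 45 UTRs at 24 to 30 nt was 71.1% in Tdrkh-/- and 73.9% in Tdrkh+/-, and a median of 82.2% of their 27-mers matched 1 gene alone, against 99.6% over all members. Repeat content was not tested.

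Source UTRs were less frequent on the X chromosome, which held 85 members, 2.12% of all, and 4.14% of annotated 3′ UTRs. UTRs of the X chromosome were not compared with others at equal length or mappability.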
